A study of Rattus norvegicus with 22 samples.

Results

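The nuclear genes of the mitochondrial oxidative phosphorylation complexes were followed in RNA sequencing of the rat nucleus accumbens (NAc), a ventral striatal region tied to reward. Members were the listed genes whose symbols begin with Ndufa, Ndufb, Ndufc, Ndufs, Ndufv, Uqcr, Cox4 to Cox8 or Atp5, or read Sdha to Sdhd, and that had at least 1 count in any rat. The assembly factors Ndufaf and Sdhaf were left out. Of 17310 listed symbols, 81 matched and 79 had a count (Cox6c-ps1 and Cox8c had none), which gave 36 members by symbol for complex I, 4 for complex II, 8 for complex III, 14 for complex IV and 17 for complex V. Symbols do not settle function in every case. Ndufa4 is now placed in complex IV but was counted under complex I here, Cox7a2l is a supercomplex factor, and Atp5sl is an older symbol for Dmac2, an assembly factor of complex I.

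The data came from NAc of 22 adult male Wistar rats in 2 experiments, with 1 library per rat. In experiment 1, 5 rats drank water alone and 5 had free choice between water and 6% (v/v) EtOH for 8 weeks. In experiment 2, all 12 rats had 6% EtOH beside water for 4 weeks, then 3 weeks of gavage 2 times daily, then 2 more weeks with EtOH to drink. Gavage was water in 6 rats and EtOH (2.5 g/kg, 30% v/v) in 6, so no rat of experiment 2 was free of EtOH and its comparison is between higher and lower exposure. The rats of each group are separate animals, the p-values measure the spread between them, and the source labels name no processing batch.

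Oxidative phosphorylation moves electrons from NADH through complex I, or from succinate through complex II, to ubiquinone, complex III and cytochrome c, and complex IV passes them to oxygen. The proton gradient that complexes I, III and IV build drives complex V, the ATP synthase. A few core subunits of complexes I, III, IV and V are encoded in mitochondrial DNA and are not among the members. Neurons draw most of their ATP from this pathway. NAc was sampled as whole tissue, so fewer cells of a type and less RNA per cell cannot be told apart.

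Reads assigned to genes numbered 2962291 to 5247386 per rat in experiment 1 and 6713617 to 8765472 in experiment 2, and the members took 0.848% to 1.097% of them. Levels are given as CPM, counts scaled to a fixed total of reads on tested genes with TMM factors, and they are not set against each other between genes because transcript lengths were not used. The read counter also lists aligned reads that it assigned to no annotated feature (no_feature). Whether the strand of a read was used in that assignment is not given in the sources used here. Their share of no_feature reads plus reads on genes is called the share below, and a member's CPM does not contain the no_feature reads. In experiment 1 the share ran from 48.4% to 51.1%, with 49.5% ± 0.996 (SD, n = 5) in water rats and 49.5% ± 0.722 (SD, n = 5) in EtOH rats. In experiment 2 it ran from 46.1% to 58.0%, and the water gavage rats averaged 50.1% ± 3.09 (SD, n = 6), the EtOH gavage rats 52.9% ± 3.42 (SD, n = 6). The groups overlapped in both experiments, and exact permutation tests (2-sided) gave p = 0.952 in experiment 1 and p = 0.175 in experiment 2. The 3 highest shares, 58.0%, 56.4% and 54.5%, belonged to EtOH gavage rats 1 and 2 and water gavage rat 1. The biological coefficient of variation over all tested genes was 11.1% in experiment 1 and 31.3% in experiment 2. Libraries of experiment 1 kept no strand information and those of experiment 2 did, so levels were not compared between the experiments.

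Genes entered the tests when their mean normalised count lay above the median of all listed genes, which left 8655 genes in each experiment. Of the 79 members, 71 were tested in experiment 1 and 70 in experiment 2, with 69 in both. Among the 7 members tested in neither experiment, Cox6a2, the heart and muscle isoform of subunit 6a, had 7 reads in each experiment over all rats. The 3 muscle and heart markers, checked as a place where tissue-specific isoforms would come from, summed to 22.8 to 35.0 CPM in experiment 1 and 1.88 to 25.3 CPM in experiment 2. Cox4i2, the oxygen-responsive alternative to Cox4i1, had 51 reads in experiment 1 and 140 in experiment 2. Ndufa4l2, a hypoxia-inducible relative of Ndufa4, had 122 and 169, Cox6b2, a testis isoform, had 39 and 42, and Cox8b had 12 and 17. Atp5f1, subunit b of the ATP synthase stalk, was listed at 0 reads in experiment 1 and 57 in experiment 2, and Ndufa1 at 17 and 0. Cox7a2, a widely expressed complex IV subunit, was listed at 0 reads in experiment 1 and 1198 in experiment 2, where it was tested. Ndufs7 and Ndufb4 passed the filter in experiment 1 only, Ndufs7 with 2174 reads there and 663 in experiment 2. Reads with more than 1 place in the genome were not counted on genes, and many of these subunits have processed pseudogenes, so part of a member's reads may be missing from its count.

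Promoters are shown for the members with the lowest p in each direction against the share in experiment 2 that had an entry in the RefSeq promoter table (assembly GRCr8). Of the 79 members, all matched a RefSeq gene, 17 of them through an older symbol, and 68 had a promoter window. Atp5d (RefSeq Atp5f1d) and Uqcrc1 were lower in rats with a high share, and Uqcrc2 and Ndufs1 were higher. Each line runs 5′ to 3′ on the gene's strand from 200 bases before the annotated transcript start to 20 bases after it, and capitals mark matches to the motif letters named below.
Atp5d, chr7:10214331-10214550, minus strand: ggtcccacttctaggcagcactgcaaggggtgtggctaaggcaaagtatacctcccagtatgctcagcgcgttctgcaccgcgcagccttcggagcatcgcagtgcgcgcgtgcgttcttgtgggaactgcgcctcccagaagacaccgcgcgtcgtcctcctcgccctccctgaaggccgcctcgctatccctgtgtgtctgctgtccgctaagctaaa
Uqcrc1, chr8:118468023-118468242, plus strand: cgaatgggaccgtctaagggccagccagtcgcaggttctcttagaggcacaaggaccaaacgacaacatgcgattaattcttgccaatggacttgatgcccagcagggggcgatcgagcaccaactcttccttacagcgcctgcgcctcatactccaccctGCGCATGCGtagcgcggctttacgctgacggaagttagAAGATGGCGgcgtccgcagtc
Uqcrc2, chr1:184599040-184599259, plus strand: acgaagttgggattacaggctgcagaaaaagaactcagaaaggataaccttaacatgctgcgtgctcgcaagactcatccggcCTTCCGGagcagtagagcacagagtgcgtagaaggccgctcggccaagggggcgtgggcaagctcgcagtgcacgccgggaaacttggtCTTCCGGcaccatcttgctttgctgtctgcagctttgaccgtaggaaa
Ndufs1, chr9:72073586-72073805, minus strand: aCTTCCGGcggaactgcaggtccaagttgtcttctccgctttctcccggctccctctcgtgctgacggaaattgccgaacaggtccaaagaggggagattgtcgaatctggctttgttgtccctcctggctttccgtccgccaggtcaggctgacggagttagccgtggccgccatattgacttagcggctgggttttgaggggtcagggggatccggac
The letters searched on both strands of the full 300-base windows were GCGCATGCG, the core that NRF1 (the nuclear respiratory factor) recognises, CCGGAAG, a core for ETS factors such as GABPA, and AAGATGGCG, a YY1 core. None overlaps another in these promoters. The Uqcrc1 window held the NRF1 letters 39 bases before the start and the YY1 letters across it. Uqcrc2 held the ETS letters on the opposite strand at 117 and 28 bases before the start, Ndufs1 held them at 199 bases, and the Atp5d window held none of the 3. Across the first listed window of each gene, the NRF1 letters stood in 6 of 68 member promoters (8.82%) against 1.66% of 27457 promoters in all. The ETS letters stood in 19 of 68 (27.9%) against 9.22%, and the YY1 letters in 10 of 68 (14.7%) against 1.93%. Any of the 3 stood in 42.6% of member promoters and 12% of all. The promoters in all were not limited to genes with reads in NAc or matched for GC content, and the differences were not tested. By direction with the share, the NRF1 letters stood in 5 of 26 promoters of lower members and 0 of 9 of higher ones, the ETS letters in 9 and 4, and the YY1 letters in 3 and 2. Median GC content of the windows of lower and higher members was 58.7% and 56.0%, and 52.3% over all promoters. These are matches of letters in a window and were not tested as binding sites.

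In experiment 1, which asks whether 8 weeks of voluntary EtOH drinking moved the pathway, no member passed an FDR of 0.05 in the quasi-likelihood test of edgeR (FDR is the Benjamini-Hochberg adjusted p over all tested genes), as for 0% of all 8655 genes. DESeq2 gave 0 members as well. Log2 fold changes (EtOH minus water) were positive for 43 members and negative for 28, with a median of 0.017 against -0.0012 over all tested genes. They ran from -0.20 to 0.22. At an unadjusted p under 0.05 there was 1 member of 71 by edgeR and 0 by DESeq2, against 5.58% of all genes by edgeR. The edgeR count was 2 without water rat 1, 3 or 5 and 0 without water rat 2 or any one EtOH rat. The share of all genes at that p was not counted in those fits. Medians were 0.017 for the 34 tested members of complex I, -0.0012 for the 4 of complex II, 0.016 for the 8 of complex III, 0.070 for the 9 of complex IV and 0.012 for the 16 of complex V. Of the complex IV members, 7 of 9 had a positive value.

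Atp5sl was the member below that unadjusted p. Its CPM was 61.8, 65.0, 56.7, 57.4 and 57.9 in the 5 water rats and 54.5, 48.0, 53.3, 55.5 and 55.2 in the 5 EtOH rats. Every EtOH rat lay below every water rat, which held for 1 member of 71 and for 0.843% of all tested genes. Its log2 fold change was -0.17 (SE 0.077, edgeR FDR 0.866), and in experiment 2, where the groups overlapped, it was -0.05 (SE 0.12, edgeR FDR 0.831). The highest and lowest fold changes belonged to accessory subunits of complex I with low counts. Ndufs5 measured 14.1, 9.48, 18.7, 22.8 and 10.7 CPM in water rats and 12.3, 20.04, 10.3, 26.5 and 18.1 in EtOH rats (log2 fold change 0.22, SE 0.27, edgeR FDR 0.967). Ndufa12 measured 25.1, 20.1, 18.1, 21.8 and 21.1 CPM in water rats and 15.1, 20.04, 17.5, 19.5 and 19.6 in EtOH rats (-0.20, SE 0.13, edgeR FDR 0.914). Both genes overlapped between the groups.

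The tested genes of a list of core and isoform genes, accessory subunits among them, had log2 fold changes of -0.10 to 0.11 in experiment 1. Among subunits that carry the electron path, Ndufv1, which binds NADH and FMN, measured 164 to 179 CPM in water rats and 165 to 178 in EtOH rats (log2 fold change -0.02, SE 0.055). Ndufs1, the largest iron-sulfur subunit of complex I, gave -0.05 (SE 0.055), and Sdha, the flavoprotein of succinate dehydrogenase, -0.02 (SE 0.056). Sdhb, its iron-sulfur partner, gave 0.02 (SE 0.068), and the membrane anchors Sdhc and Sdhd gave -0.02 (SE 0.066) and 0.05 (SE 0.079). Uqcrfs1, the Rieske iron-sulfur protein, gave -0.08 (SE 0.071), while Uqcrc1 and Uqcrc2, the core proteins of complex III, gave 0.03 (SE 0.057) and 0.01 (SE 0.067). Cox4i1, the regulatory subunit 4, gave 0.02 (SE 0.060), and Cox5a, Cox5b and Cox6a1 gave 0.11, 0.03 and -0.01. Ndufa4 gave 0.10 (SE 0.056), with an unadjusted p = 0.0476 in the exact permutation test of log2 CPM. In the ATP synthase, Atp5a1 (alpha) gave -0.03 (SE 0.052) and Atp5b (beta), which holds the catalytic sites, -0.07 (SE 0.054). Atp5g1, Atp5g2 and Atp5g3, genes for the same mature subunit c of the rotor ring, gave -0.07, 0.10 and -0.10. The lowest edgeR FDR among the genes of this paragraph was 0.888, for Ndufa4.

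In experiment 2, which asks about added EtOH by gavage, again no member passed an FDR of 0.05 by edgeR, as for 0% of all 8655 genes, and DESeq2 gave 0. Fold changes (EtOH gavage minus water gavage) were negative for 45 members and positive for 25, with a median of -0.13 against 0.00088 over all tested genes. At an unadjusted p under 0.05 there was 1 member of 70 by edgeR and 2 by DESeq2, against 1.33% of all genes by edgeR. The edgeR count was 9 with all 4 groups in one fit, 8 without EtOH gavage rat 4, 4 without water gavage rat 1, 3 with the replicate block, 2 without water gavage rat 5 or 6 or EtOH gavage rat 1, and 0 without water gavage rat 2. The share of all genes at that p was not counted in these other fits, so their counts have no background beside them. The fit of all 4 groups shares 1 spread between experiments whose spread differed. No member had groups that did not overlap, against 0.0116% of all genes. Medians were -0.12 for complex I (32 tested), -0.14 for complex II (4), -0.23 for complex III (8), -0.21 for complex IV (10) and -0.10 for complex V (16). The median standard error of a member was 0.16, against 0.081 in experiment 1. With the share added to the fit the median of the members became -0.012, and without the 3 rats with the highest share it was -0.085.

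**Figure D1:**
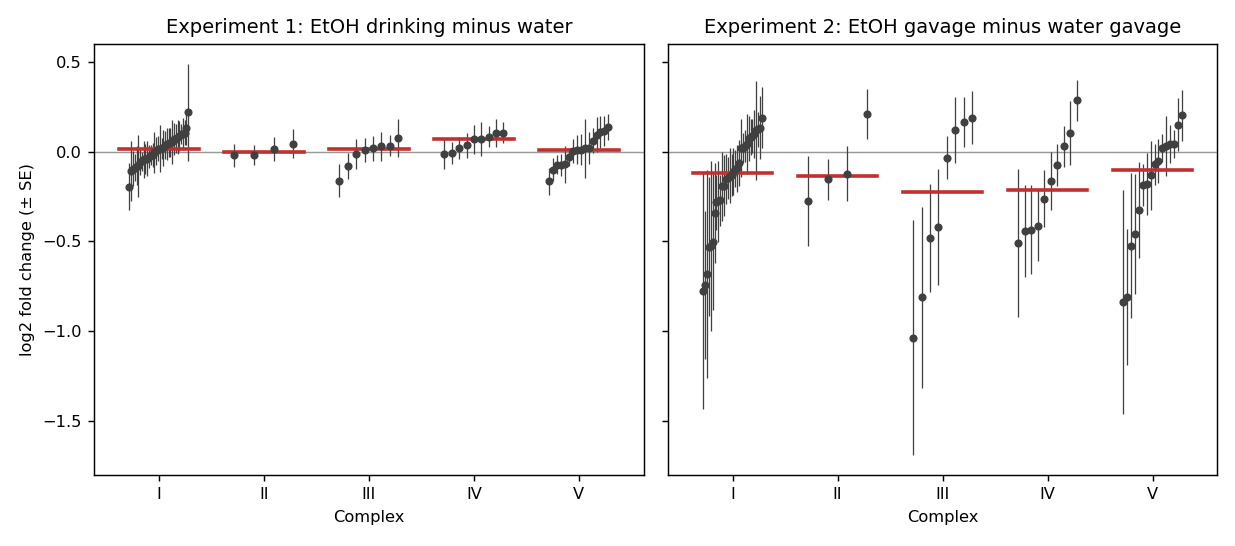
Log2 fold change of each tested member (points, with 1 standard error) by complex (horizontal axis) in experiment 1 (left) and experiment 2 (right), with the median of each complex as a red line. Experiment 1 values lie between -0.20 and 0.22, while those of experiment 2 run from -1.04 to 0.29 with wider errors.

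Cox5a, a complex IV subunit that binds a thyroid hormone metabolite, was the member below that unadjusted p. Its lowest, median and highest CPM were 34.1, 35.7 and 40.7 after water gavage and 35.4, 44.5 and 51.6 after EtOH gavage. Of the 6 EtOH gavage rats, 5 lay above every water gavage rat. The log2 fold change was 0.29 (SE 0.11, edgeR FDR 0.675). An exact permutation test of log2 CPM gave an unadjusted p = 0.0108. Cox5a was named for its low p in these same rats, so that value is not separate support. In experiment 1 the value for Cox5a was 0.11 (SE 0.080, edgeR FDR 0.924). The lowest fold change belonged to Uqcr10, a small subunit of complex III, at -1.04 (SE 0.65, edgeR FDR 0.675). Its lowest, median and highest CPM were 3.87, 14.5 and 36.8 after water gavage and 0.870, 8.26 and 21.5 after EtOH gavage, and the groups overlapped over most of their ranges.

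The summed CPM of each complex was taken per rat, as a description without a test. The ratio of sums differed in direction from the median fold change for complex V in experiment 1 and for complex III in experiment 2, whose log2 ratio was 0.026 and, without its most counted member Uqcrc2, -0.15. In experiment 1 the EtOH to water ratio of group means was 1.01 for complex I, 0.997 for complex II, 1.001 for complex III, 1.03 for complex IV and 0.976 for complex V. In experiment 2 it was 0.978, 0.947, 1.02, 0.839 and 0.972. Rats given water by gavage held a complex IV sum of 1133 ± 205 CPM (SD, n = 6) and those given EtOH 950.5 ± 233 CPM (SD, n = 6), and the groups overlapped there and in every other complex of both experiments. The highest rat held 2.24 times the complex IV sum of the lowest in experiment 2 and 1.17 times in experiment 1.

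**Figure D2:**
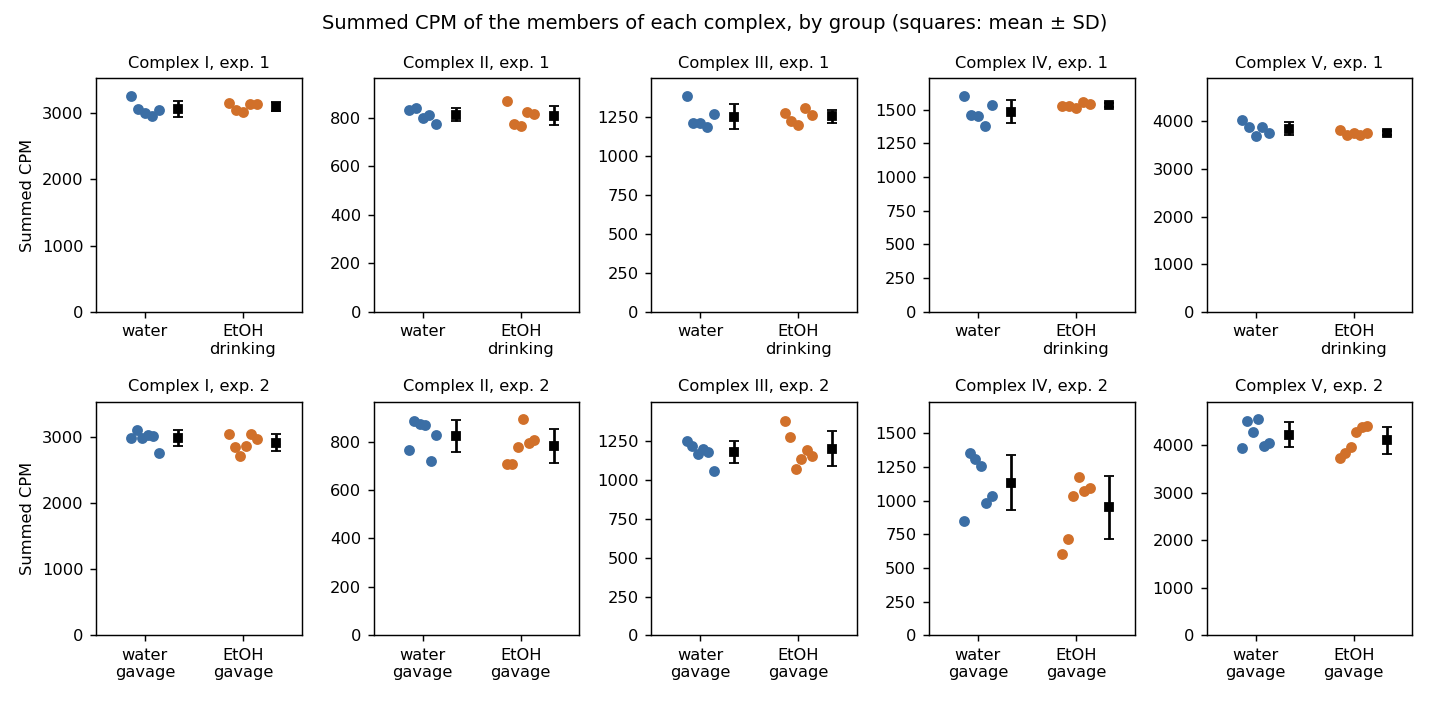
Summed CPM (vertical axis, from 0) of the members of each complex for each rat (points), with the mean and SD of each group as a square with bars, for experiment 1 (top) and experiment 2 (bottom). Groups overlap in all 10 panels, and complex IV in experiment 2 spreads most, from 606 to 1357 CPM.

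Against the share, the members of experiment 2 went in opposite directions. In a fit with group and share, the slope is the log2 change per percentage point of share at a given group, so it measures rats within the groups. By edgeR's quasi-likelihood test at FDR under 0.05 over all tested genes, 31 of 70 members (44.3%) were lower in rats with a higher share, against 33.9% of all genes, and 10 (14.3%) were higher, against 33.9% of all genes. The difference of these shares from the background was not tested, and the other 29 members were not called. The median slope of the members was -0.030, and 0.0042 over all genes. By complex, 11 of 32 members were lower and 4 higher in complex I, 3 and 1 of 4 in complex II, 4 and 3 of 8 in complex III, 6 and 0 of 10 in complex IV, and 7 and 2 of 16 in complex V.

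**Figure D3:**
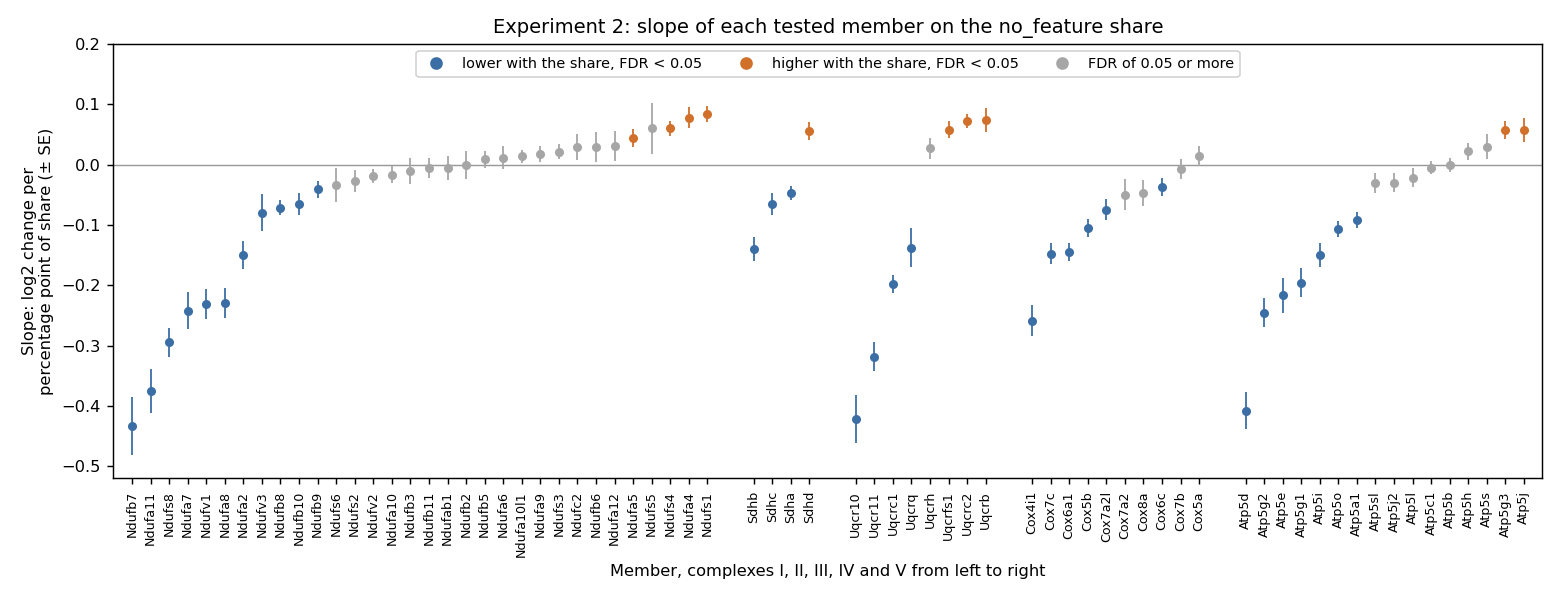
Slope of each of the 70 tested members on the share in experiment 2 (log2 change per percentage point, with 1 standard error), ordered within complexes I to V from left to right. Blue points (31) were lower and orange points (10) higher with the share at FDR under 0.05, and the lower slopes reach -0.43 while the higher ones end at 0.084.

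The slopes of the 31 members called lower ran from -0.037 to -0.43 and those of the 10 called higher from 0.044 to 0.084, so the steepest were among the lower ones. Atp5d, the delta subunit of the central stalk of ATP synthase, had the lowest p. Its lowest, median and highest CPM were 10, 42.1 and 92.5 after water gavage and 4.38, 25.1 and 54.1 after EtOH gavage. The lowest level of each group was in a rat among the 3 highest shares, and the highest of all, from 703 reads, was in the rat with the lowest share, water gavage rat 2. The slope was -0.41 per percentage point (SE 0.030, edgeR FDR 1.09e-06). Pearson's r between log2 CPM and the share was -0.98 and Spearman's rho -0.97 over 12 rats, given without a test here and below since these genes were named for their slopes on the same share. Without the 2 rats farthest from the median share r was -0.96. In experiment 1 the slope of Atp5d was -0.03 (SE 0.047, edgeR FDR 0.902).

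Uqcr11 and Uqcrc1 of complex III came next. Uqcr11, a small subunit, measured 21.1, 63.9 and 134.7 CPM (lowest, median, highest) after water gavage and 10.3, 40.4 and 81.2 after EtOH gavage, with a slope of -0.32 (SE 0.024, edgeR FDR 1.09e-06). Uqcrc1, a core protein that faces the matrix, measured 81.6, 165.1 and 235.3 CPM after water gavage and 50.2, 129.6 and 190.8 after EtOH gavage, with a slope of -0.20 (SE 0.015, edgeR FDR 1.09e-06). For both genes the 3 rats with the highest share were the 3 lowest rats. Uqcr10 and Ndufb7, an accessory subunit of complex I, had steeper slopes on few reads. Uqcr10 gave -0.42 (SE 0.039), from 280 reads in the rat with the lowest share to 6 reads in the rat with the highest, and Ndufb7 gave -0.43 (SE 0.048), from 229 reads to 6 in the same rats.

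In complex I, Ndufv1 measured 51.0, 109.6 and 159.9 CPM after water gavage and 25.2, 70.5 and 133.3 after EtOH gavage, with a slope of -0.23 (SE 0.024, edgeR FDR 3.25e-06). Ndufs8, a further iron-sulfur core subunit, gave -0.29 and Ndufa11, an accessory membrane subunit, -0.38. Ndufs7, their neighbour on the electron path, was under the filter in experiment 2, with 202 reads in the rat with the lowest share and 2 in the rat with the highest. The opposite direction was seen for Ndufs1, at 314, 382 and 490 CPM after water gavage and 336, 405 and 637 after EtOH gavage. Here the rats with the 3 highest shares were the 3 highest rats. The slope of Ndufs1 was 0.084 (SE 0.014, edgeR FDR 8.55e-05), and r was 0.91 and rho 0.87 over 12 rats, or r = 0.80 without the 2 farthest rats. Ndufs4, an accessory subunit tied to inherited complex I deficiency, gave 0.060 (SE 0.012, edgeR FDR 0.000593), Ndufa4 0.078 (SE 0.017, edgeR FDR 0.00106), and Ndufa5 0.044.

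All 4 subunits of complex II were called, where 33.9% of all tested genes were called in each direction. Sdhb (-0.14, SE 0.020), Sdhc (-0.066, SE 0.018) and Sdha (-0.047, SE 0.012) were lower with the share, and Sdhd was higher (0.056, SE 0.015, edgeR FDR 0.00355). Sdhb ran from 77.7 to 137.7 CPM after water gavage and 42.3 to 128.2 after EtOH gavage, and its lowest rat was the one with the highest share. Sdhd ran from 158 to 200 CPM after water gavage and 164 to 288 after EtOH gavage, and in each group its highest rat was the one with the highest share.

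Complex III held a pair of core proteins that went opposite ways, where 33.9% of all tested genes were called in each direction. Against the slope of -0.20 for Uqcrc1 stood 0.073 (SE 0.012, edgeR FDR 8.24e-05) for Uqcrc2. Its lowest, median and highest CPM were 479.7, 557.4 and 736.2 after water gavage and 533.1, 615.8 and 850.5 after EtOH gavage, again with the 3 highest rats at the 3 highest shares (r = 0.94, rho = 0.90). Uqcrfs1 (0.058, SE 0.014) and Uqcrb, a small subunit next to ubiquinone (0.074, SE 0.020), were higher as well, Uqcrq, another small subunit, was lower (-0.14, SE 0.032), and Uqcrh, the hinge protein, was not called.

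No tested member of complex IV was called higher with the share, where 33.9% of all tested genes were, and that difference was not tested. Cox4i1 measured 109.9, 264.2 and 373.4 CPM after water gavage and 41.9, 208.5 and 300.1 after EtOH gavage, with a slope of -0.26 (SE 0.026, edgeR FDR 2.45e-06). The levels of its 3 lowest rats were again those of the 3 highest shares. Cox7c (-0.15), Cox6a1 (-0.14), Cox5b (-0.10) and the supercomplex factor Cox7a2l (-0.075) were lower too, while Cox5a (0.014), Cox7b (-0.0071), Cox7a2 (-0.050) and Cox8a (-0.046) were not called. Cox6c, the last of the 6 called lower, had a slope of -0.037 (SE 0.015, edgeR FDR 0.0392), which was 0.013 without the 3 rats with the highest share. Its call was also lost under DESeq2, DESeq2 size factors or no filter (slope -0.028 in each) and with the replicate block (-0.016). With the share over all lines of the file the call was lost too (-0.072 per point of that share, a different scale). The same held without any one of water gavage rats 1, 3 and 4 and EtOH gavage rats 1, 2, 4 and 6 (-0.029 to -0.038). Within the water gavage rats r was -0.16. The untested Cox4i2 was at 4.603 CPM in the rat with the lowest share and at 0 in the rat with the highest.

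In complex V, the genes for subunit c fell on both sides, where 33.9% of all tested genes were called in each direction. Atp5g1 (-0.20, SE 0.024) and Atp5g2 (-0.25, SE 0.024) were lower and Atp5g3 higher (0.057, SE 0.015, edgeR FDR 0.00373), although the mature protein is the same. Atp5g2 ran from 43.2 to 126.5 CPM after water gavage and 13.9 to 94.2 after EtOH gavage. Atp5g3 ran from 203 to 270 CPM after water gavage and from 210 to 363 after EtOH gavage. The lowest rat for Atp5g2 and the highest for Atp5g3 were the same one, EtOH gavage rat 1. The catalytic ring did not move as one. Atp5a1 had a slope of -0.092 (SE 0.014, edgeR FDR 4.32e-05) and Atp5b one of -0.00063 (SE 0.012, edgeR FDR 0.965). Atp5o of the peripheral stalk (-0.11), Atp5e of the central stalk (-0.22) and Atp5i of the membrane part (-0.15) were lower, and Atp5j, coupling factor 6, was higher (0.058).

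**Figure D4:**
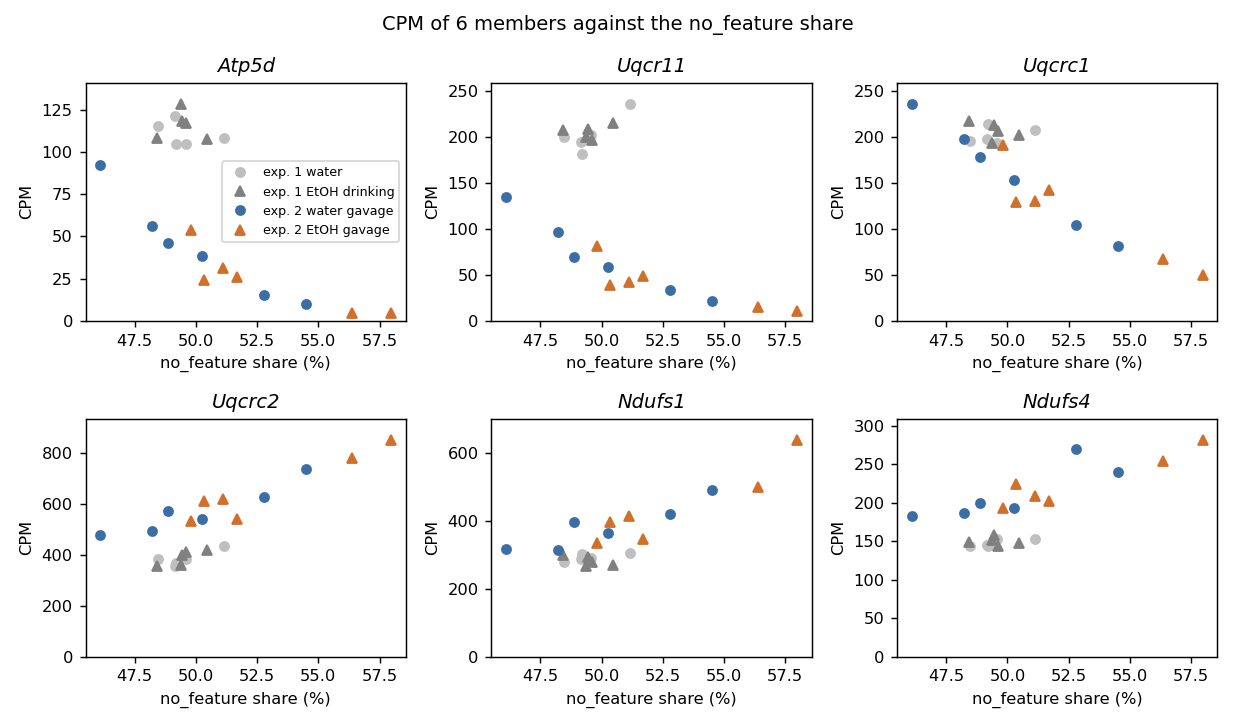
CPM (vertical axis, from 0) against the share (horizontal axis) for the 3 members with the lowest p in each direction in experiment 2, 1 point per rat, with experiment 1 in grey. Atp5d, Uqcr11 and Uqcrc1 end at 4.64, 10.3 and 50.2 CPM in the rat with the highest share, where Uqcrc2, Ndufs1 and Ndufs4 reach 850.5, 637 and 282 CPM.

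Because of these opposite directions, sums over a complex hid part of the pattern. In experiment 2, Pearson's r between the summed CPM and the share was -0.98 for complex IV (rho -0.95), -0.90 for complex II (rho -0.94), -0.87 for complex V (rho -0.85), -0.12 for complex I (rho -0.20) and 0.58 for complex III (rho 0.41), each over 12 rats and without a test. The value of complex I turned to 0.37 with DESeq2 size factors, was -0.70 without TMM factors and ran from -0.54 to 0.057 with single rats left out, at its ends without EtOH gavage rat 1 and water gavage rat 2. Complex IV gave -0.96 within the water gavage rats, -0.99 within the EtOH gavage rats and -0.96 without the 2 rats farthest from the median share. Complex III gave 0.0011 without those 2 rats. Uqcrc2 supplied 51.5% of the complex III reads and Ndufs1 13.8% of those of complex I, and without them r was -0.80 for complex III and -0.72 for complex I. Without Atp5b, 45.2% of the complex V reads, r was -0.95.

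**Figure D5:**
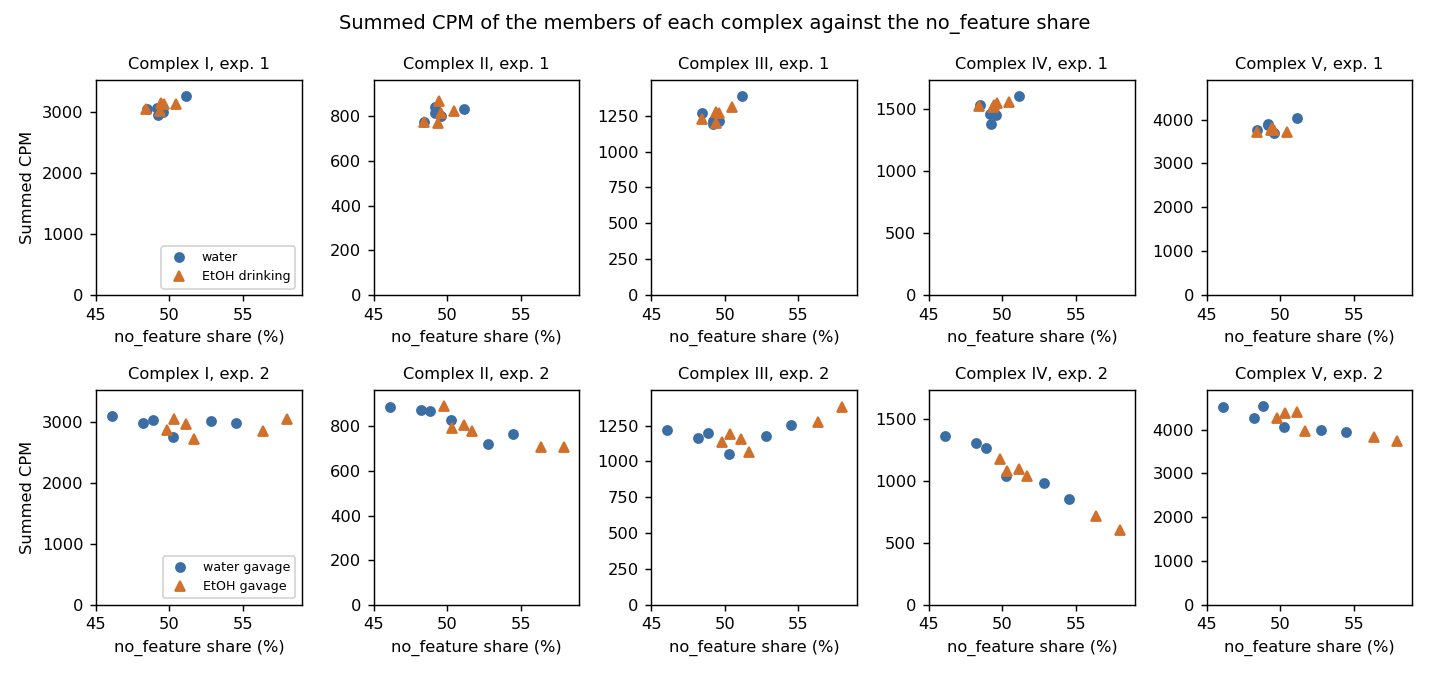
Summed CPM (vertical axis, from 0) of each complex against the share (horizontal axis), 1 point per rat, for experiment 1 (top) and experiment 2 (bottom). Complex IV in experiment 2 declines from 1357 to 606 CPM over shares of 46.1% to 58.0%, while in experiment 1 the shares span only 48.4% to 51.1%.

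The calls depended on the rats at the high end of the share. Without those 3 rats, 9 rats with shares of 46.1% to 52.8% remained, and 18 members were lower and 1 higher, against 12% and 5.6% of all genes. All 18 and the 1 were among the calls with 12 rats, and of the 31 lower and 10 higher members 30 and 10 kept the sign of their slope. Without EtOH gavage rat 1 alone, 29 members were lower and 5 higher, and the share of all genes called was not counted in that fit.

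In experiment 1, where the share varied less, no slope of a member passed an FDR of 0.05 by edgeR or DESeq2, as for 0% of all genes by edgeR. At an unadjusted p under 0.05, 5 members were higher with the share, against 4.3% of all genes, and 0 were lower, against 5.3%. DESeq2 gave 4 members in all. The 5 were Cox6c, Uqcrc2, Ndufs7, Ndufb5 and Atp5l, and 55 of 71 slopes were positive (median 0.035, and -0.0011 over all genes). That median was -0.037 with the share taken over all lines of the file (per point of that share, a different scale), and 0.0025 without water rat 1. Cox6c, a small subunit of complex IV, measured 188.2, 134.1, 133.3, 132.9 and 148.9 CPM in water rats and 154.6, 147.2, 149.5, 177.0 and 144.7 in EtOH rats, with its highest level in the rat with the highest share, water rat 1. Its slope was 0.15 (SE 0.047, edgeR FDR 0.358), and r was 0.72 over 10 rats but -0.24 without the 2 rats farthest from the median share. For Uqcrc2 the slope was 0.096 (SE 0.035, edgeR FDR 0.404), and for Ndufs7 0.14 (SE 0.053, edgeR FDR 0.422). Downward, Ndufb11 (-0.094), Uqcrq (-0.089) and Atp5h, subunit d of the stalk (-0.068), had the lowest p, with an FDR of 0.619 or higher by edgeR. Summed CPM correlated with the share at r = 0.71, 0.49, 0.73, 0.45 and 0.48 for complexes I to V, and at 0.19, 0.49, -0.098, -0.19 and 0.095 without water rat 1 and EtOH rat 4, the 2 farthest from the median.

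The slopes of the experiments were set side by side. In experiment 1 no slope was called, and the members' slopes had a median of 0.035 and a median standard error of 0.049. A low correlation of values with that spread cannot tell whether the slopes differed, and no group difference was called in either experiment. Over the 69 members tested in both, r between the slopes was 0.086 and 27 had the same sign, and for the group differences r was 0.0014 and 30 had the same sign, given as a description since members are not independent. The gavage effect minus the drinking effect, tested in 1 fit over all 22 rats, passed an FDR of 0.05 for 0% of 8176 genes and for no member. At an unadjusted p under 0.05 it gave 0 members by edgeR and 1 by DESeq2, against 1.88% of all genes by edgeR. The lowest FDR of a member was 0.814, and the median difference (experiment 2 minus experiment 1) was -0.14. That fit shares 1 spread between experiments whose spread differed.

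The group differences of experiment 2 were measured in the same rats as the slopes, and the EtOH gavage group had the higher mean share. For Atp5d the log2 fold change was -0.84 (SE 0.62) beside the slope of -0.41, for Uqcr11 -0.81 (SE 0.50) beside -0.32, and for Ndufs1 0.19 (SE 0.17) beside 0.084, each with an edgeR FDR of 0.675. Atp5e, the epsilon subunit, measured 17.2, 36.4 and 57.1 CPM (lowest, median, highest) after water gavage and 7.54, 21.7 and 43.4 after EtOH gavage, with a log2 fold change of -0.81 (SE 0.38, edgeR FDR 0.675). Cox5b, which binds zinc in complex IV, measured 29.9, 38.5 and 52.9 CPM and 20.7, 31.2 and 37.6 CPM, with a log2 fold change of -0.41 (SE 0.20, edgeR FDR 0.675). Both overlapped between the groups. How much of a group difference went with EtOH and how much with the share was not tested apart from the fit with both terms.

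Genes around the pathway were counted in the same way in experiment 2. Over all tested genes 33.9% were higher with the share and 33.9% lower, and how the lists compare with that was not tested. Of 32 tested assembly factors, 16 were higher and 9 lower, among them Ttc19 of complex III (0.092) and Uqcc2 (-0.23). Electron carriers and ubiquinone synthesis genes gave 4 higher and 4 lower of 13, with Etfa (0.093) and Etfb (-0.18), the subunits of the electron transfer flavoprotein, on opposite sides. The tricarboxylic acid cycle gave 3 higher and 7 lower of 12, with Mdh2, malate dehydrogenase, at -0.12 and Sucla2, a subunit of succinate-CoA ligase, at 0.078. Regulators of mitochondrial biogenesis gave 5 higher and 3 lower of 12, with Esrra, an orphan nuclear receptor, at -0.39 and Tfam, which packages mitochondrial DNA, at 0.075. The mitochondrial ribosome gave 9 higher and 21 lower of 59, and the cytosolic ribosome 5 and 25 of 49. None of these genes passed an FDR of 0.05 between the groups of either experiment by edgeR. At an unadjusted p under 0.05 the 6 lists together gave 12 in experiment 1, of which 9 were cytosolic ribosome genes, and 1 in experiment 2, against 5.58% and 1.33% of all genes.

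Markers of cell types were set against the share in experiment 2, where 33.9% of all genes were called in each direction. How the marker lists compare with that was not tested. The summed CPM of 5 microglia markers ran from 160 to 356 after water gavage and 154 to 282 after EtOH gavage, with r = -0.87 to the share over 12 rats, and 3 of 5 were called lower and 0 higher. Astrocyte markers (5) gave r = 0.66, with 1 higher and 1 lower, and oligodendrocyte precursor markers (2) 0.50, with 1 and 1. Oligodendrocyte markers (5) gave 0.14, with 2 higher and 2 lower, neuronal markers (4) 0.23, with 0 and 1, and striatal projection neuron markers (9 listed) 0.075, with 3 and 1. Endothelial markers (4) gave -0.39, with 0 higher and 1 lower, those of pericytes and fibroblasts (3 tested) -0.42, with 0 and 2 and Col1a2 at 0, and the untested ependymal and choroid plexus markers -0.58 and 0.34. Muscle and heart markers (3) gave -0.86 at sums of at most 25.3 CPM, with Ckm at 0. The part of cell composition, RNA quality or library preparation in the slopes of the members was not tested.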

How the data were processed

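RNA from NAc of 22 rats was sequenced as polyadenylated libraries. The authors aligned reads to rn6 with TopHat2 2.0.13 and counted them per gene with HTSeq (versions 0.5.3p3 and 0.6.0 are both named in the submitters' processing notes), and the deposited values are raw counts per gene and rat. Counting options and the gene annotation are not given in the sources used here. Closing lines of each file count reads without a gene, and those without a feature gave the share. Multiply mapped reads made 53.2% to 55.6% of all lines in experiment 1 and 39.4% to 44.1% in experiment 2. They stayed out of library sizes and tests, as did all other closing lines.

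Groups came from the labels, and each experiment was fitted on its own with edgeR 4.0.16 in R 4.3.3 (TMM, glmQLFit, glmQLFTest, Benjamini-Hochberg over 8655 genes with a mean normalised count above the median of 43.6 or 66.4). The share fit held group and share. CPM used the TMM factors. Correlations of single members with the share used log2(CPM + 0.5), and those of summed CPM (complexes and cell type markers) used the sums without a log. Alternatives included DESeq2 1.42.0, other scalings and filters, a replicate block and leaving out each rat. The members and gene lists were chosen with earlier results of these data known. Named members were those with an unadjusted p under 0.05 between groups, the 3 lowest p in each direction of each share fit, the extreme fold changes, and a list of core and isoform genes (Cox7a1 of that list was not analysed here). Others (Atp5e, Atp5o, Atp5i, Atp5j, Uqcrb, Uqcrh, Ndufb7, Ndufs8, Ndufa11, Ndufa5, Cox7c, Cox7a2l, Cox7b, Cox8a and the untested members) were named after their values were seen. The fits were tested on simulated data. Promoter windows came from RefSeq, assembly GRCr8, and coordinates are of that assembly. No 2 libraries of the same group agreed within counting noise (lowest chi-square per degree of freedom 2.67), and libraries of different groups were not compared in this way.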

Additional observations from a re-analysis of the deposited data

Results flagged for a closer look

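In groups of 5 or 6 rats, a highest or lowest value whose gap to the next exceeded Dixon's 95% limit was found in 12 of 164 groups examined, where chance gives about 5%, or 8.2. In experiment 1, Atp5a1 was high in water rat 4 (827 CPM, others 774 to 787), Cox6c in water rat 1 (188.2, others 132.9 to 148.9), Ndufb11 in water rat 5 (62.0, others 51.2 to 54.3) and Sdhd in EtOH rat 1 (140.9, others 110.1 to 114.5). Water rat 1 had the highest share of that experiment.

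In experiment 2, Sdhd was high in EtOH gavage rat 1 (287.7 CPM, others 164.4 to 209.1) and in water gavage rat 1 (200.1, others 158.4 to 172.7), the rats with the highest share in their groups. Uqcrq was high in water gavage rat 2 (23.9, others 9.41 to 14.1), the rat with the lowest share. Cox7a2 was high in water gavage rat 3 (16.95, others 10.5 to 12.9). In EtOH gavage rat 4, Ndufs5 was low (12.1, others 27.7 to 33.6) and Cox4i2 high (3.46, others 0 to 1.25). The complex I sum was low in water gavage rat 6 (2751 CPM, others 2988 to 3101). Cox6a2 had reads in 1 of the 6 water gavage rats, rat 4 (0.479 CPM, others 0). No cause was tested for these values.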

How the results depend on the processing

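Of 542 recomputed summary values, 485 stayed within a preset margin of the main value, as did 2426 of 2540 values of single members. The margin was a fold range for counts and a spread for medians, ratios and correlations. A member called in the main fit had to keep its call and sign. One not called had to stay so and move by less than its standard error. The sign of summary values was not checked, and the median of experiment 1, 0.017, was -0.0059 without water rat 4. No member passed an FDR of 0.05 between groups under any alternative. Members at an unadjusted p under 0.05 in experiment 1 (1 member) numbered 0 under DESeq2, no filter, at least 10 counts in every sample, glmQLFit without the legacy mode, all 4 groups in one fit and the replicate block, and 0 to 2 with each rat left out. In experiment 2 (1 member) they numbered 2 under DESeq2, DESeq2 size factors, no filter and glmQLFit without the legacy mode, 9 with all 4 groups in one fit, 3 with the replicate block, and 0 to 8 with each rat left out (8 without EtOH gavage rat 4, 0 without water gavage rat 2, 4 without water gavage rat 1). Between the experiments, DESeq2 gave 1 member at an unadjusted p under 0.05 against 0. Under DESeq2, 427 of all tested genes were at that p in experiment 1 and 161 in experiment 2. For the edgeR alternatives the share of all genes was not counted, so their counts have no background beside them. The fit of all 4 groups shares 1 spread between experiments whose spread differed. The cause of these shifts was not tested.

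The 10 members higher with the share in experiment 2 became 6 with the share taken over all lines of the file, 0 with the replicate block, 1 without the 3 rats with the highest share (chosen after seeing the data), and 5 to 10 with each rat left out, 5 without EtOH gavage rat 1. The 31 lower became 18 without those 3 rats, 24 with the replicate block and 28 to 33 with each rat left out. Among these alternatives the share of all genes called was counted only without the 3 rats (12% lower and 5.6% higher). The other counts have no background beside them, and whether calls fell more for members than for all genes was not tested. With the share over all lines, the median slope was -0.065 in experiment 2 and -0.037 in experiment 1, where it was 0.035. Cox6c turned from -0.037 to 0.013 without the 3 rats. Same-numbered rats deviated together with correlations of -0.13 to 0.14 in experiment 1 and -0.76 to 0.84 in experiment 2. Of 11 rat numbers, 1 matched its own best. The 0.84 was for number 1, with shares of 54.5% and 58.0%, and the -0.76 for number 2, with 46.1% and 56.4%. Since rats of like share can match for that alone, these values cannot decide whether the numbers pair the rats.

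For sums in experiment 2, r with the share for complex I was -0.70 without TMM factors, 0.37 with DESeq2 size factors, -0.72 without its most counted member, -0.45 without the 3 rats, and -0.54 to 0.057 with each rat left out. Complex II gave -0.81 with DESeq2 size factors, -0.79 without its most counted member and -0.78 without the 3 rats. Complex III gave -0.80 without its most counted member, with a log2 ratio of groups of -0.15, then -0.46 without the 3 rats and 0.25 to 0.73 with each rat left out. Complex IV gave -0.95 without its most counted member and -0.92 without the 3 rats, and complex V -0.64 with DESeq2 size factors, -0.95 without its most counted member and -0.68 without the 3 rats. In experiment 1, leaving out each rat gave 0.37 to 0.76 for complex I, 0.37 to 0.85 for complex III, 0.10 to 0.56 for complex IV and -0.22 to 0.68 for complex V, the lowest each time without water rat 1.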

Other observations

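The cytosolic ribosome was counted beside the members. Of its 85 listed genes, 42 passed the filter in experiment 1 and 49 in experiment 2. In experiment 1, 38 of its 42 tested genes had a positive fold change (median 0.11, and 9 at an unadjusted p under 0.05 by edgeR, none at an FDR of 0.05), beside 49.5% positive, a median of -0.0012 and 5.58% at that p over all genes. In experiment 2, 42 of 49 had a negative one (median -0.20, 0 at an unadjusted p under 0.05 by edgeR), beside 50.1% positive, a median of 0.00088 and 1.33% at that p over all genes. The mitochondrial ribosome had 27 positive of 61 (median -0.0095) and 29 of 59 (median -0.011). The complex IV members had 7 of 9 positive (median 0.070) and 7 of 10 negative (median -0.21) in the same comparisons.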
